A study of Mus musculus with 8 samples.

Results

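Complex I, the NADH:ubiquinone oxidoreductase of the mitochondrial inner membrane, is built from subunits encoded in 2 genomes. Its genes were followed here in beta cells of mice with the genotypes Control and Chd4KO. Members were chosen by symbol in GENCODE M21: protein-coding genes whose symbol starts with Ndufa, Ndufb, Ndufc, Ndufs, Ndufv or Ndufaf, plus mt-Nd1 to mt-Nd6 with mt-Nd4l. The rule found 53 of the 55487 genes in the deposited tables. They comprise 7 mitochondrially encoded core subunits, 7 nuclear core subunits, 29 nuclear accessory subunits, 8 assembly factors, and the pair Ndufa4 and Ndufa4l2, which keeps an older name although Ndufa4 is now assigned to cytochrome c oxidase.

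RNA was sequenced from pancreatic beta cells that had been flow-sorted from the dispersed islets of tamoxifen-treated mice. One group of 4 libraries has the genotype Control, and 4 libraries have the genotype Chd4KO, which the series text calls Chd4Db. Chd4 is the helicase and motor subunit of the NuRD chromatin remodelling complex. Both groups received tamoxifen. The Cre driver, the floxed allele, the age and the sex of the mice are not given in the sources used here. Every library carries an animal number of its own, so replicates were taken as separate mice, and the numbers of the Chd4KO mice all lie above those of the Control mice, so any difference in date or litter cannot be told apart from genotype.

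Complex I takes electrons from NADH, passes them along a chain of iron-sulfur clusters to ubiquinone and pumps protons across the inner membrane. The 7 nuclear core subunits form the matrix arm with the flavin and the iron-sulfur clusters, and the 7 mitochondrial core subunits form the membrane arm with the proton channels. Accessory subunits surround this core, and assembly factors join the modules and leave the finished enzyme. In beta cells, mitochondrial ATP made from glucose closes potassium channels and so triggers insulin release.

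The mitochondrial genome has old copies of itself in the nuclear chromosomes, and these bear on which reads can be assigned to an mt-Nd gene. The sequences below show the first 120 bases of mt-Nd4l (chrM:9877-9996) and mt-Nd3 (chrM:9459-9578) beside the annotated nuclear copies Gm10222 (chr1:24612581-24612700, minus strand) and Gm28438 (chr1:24613000-24613119, minus strand). For contrast, a window of mt-Nd2 (chrM:4472-4591) stands beside Gm13339 (chr2:22590384-22590503, minus strand). All are from the GRCm38 assembly and read 5′ to 3′ in the direction of the gene, with bases that differ within a pair in capitals.
mt-Nd4l: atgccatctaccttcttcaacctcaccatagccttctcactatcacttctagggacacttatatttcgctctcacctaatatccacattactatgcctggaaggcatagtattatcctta
Gm10222: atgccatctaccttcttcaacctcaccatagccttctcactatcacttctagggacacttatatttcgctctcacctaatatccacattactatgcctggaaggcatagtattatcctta
mt-Nd3: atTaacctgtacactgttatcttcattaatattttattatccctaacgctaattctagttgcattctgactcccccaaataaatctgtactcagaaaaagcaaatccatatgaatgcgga
Gm28438: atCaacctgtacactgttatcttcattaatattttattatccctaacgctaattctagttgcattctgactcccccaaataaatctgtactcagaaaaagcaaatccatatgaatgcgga
mt-Nd2: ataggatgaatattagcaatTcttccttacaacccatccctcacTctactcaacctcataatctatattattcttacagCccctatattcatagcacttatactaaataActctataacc
Gm13339: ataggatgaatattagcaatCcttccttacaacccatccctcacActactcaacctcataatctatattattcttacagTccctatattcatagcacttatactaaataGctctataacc

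Over its whole length Gm10222 matched mt-Nd4l at all 294 aligned bases, and Gm28438 differed from mt-Nd3 at 1 of 345 bases. Gm28439 on chromosome 1 matched mt-Nd4 at all 876 bases that it covers. Gm13339 on chromosome 2 differed from mt-Nd2 at 17 of 510 bases. Of all 50-base words (every stretch of 50 bases), 98.8% of those of mt-Nd4l and 98.0% of those of mt-Nd3 also occurred in a transcript of a gene elsewhere in the genome. The share was 62.2% for mt-Nd4, 8.19% for mt-Nd2 and 7.61% for mt-Nd5, and no word of mt-Nd1 or mt-Nd6 was shared. The way of counting reads that fit several places was not given in the sources used here, so levels of mt-Nd3, mt-Nd4l and mt-Nd4 are uncertain.

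Reads in genes, recovered from TPM (transcript abundance per length, scaled to a fixed total) and exon length, numbered 16.4 to 41.0 M in the Control libraries. The Chd4KO libraries had 14.9 to 20.2 M. Chd4 itself kept 42.4% of its Control mean in Chd4KO (log2 change -1.18 ± 0.29 SE, limma adjusted p = 0.0725), the groups did not overlap, and the adjusted p was under 0.05 in 6 of 19 alternative fits. Beta cell markers summed to at least 396394 TPM in every library, a sum made up mostly of insulin transcripts. Of the 10, Mafa, a transcription factor of mature beta cells (change -1.95 ± 0.36, adjusted p = 0.0229), and Slc2a2, their glucose transporter (-1.37 ± 0.27, adjusted p = 0.0310), were called lower. The leukocyte markers Fcer1g (1.51 ± 0.33, adjusted p = 0.0482) and Cd68 (1.22 ± 0.20, adjusted p = 0.0132) were called higher, and the ductal marker Cftr lower (-1.87 ± 0.35, adjusted p = 0.0238). Each of these 5 called markers lost its call in some of the alternative fits. Among the 5 leukocyte markers tested, Cd74 (-0.21 ± 0.39) and Csf1r (-0.10 ± 0.33) had negative estimates. Lyz2 (0.15 ± 0.49) was positive and not called. The ductal marker Spp1 had a positive estimate (0.39 ± 0.93) and was not called. The 4 ductal markers summed to 13.3 to 34.7 TPM in Control and 5.52 to 96.7 TPM in Chd4KO. The part of these cell type markers in the changes of complex I genes was not tested. The 4 stromal markers summed to 0.125 to 0.148 TPM in Control and 0.268 to 0.398 TPM in Chd4KO. For the 5 endothelial markers the sums were 5.52 to 5.70 TPM in Control and 6.31 to 7.78 TPM in Chd4KO. Alpha cell markers summed to 1495 to 2861 TPM in Control and 808 to 4156 TPM in Chd4KO. Delta and PP cell markers summed to 1758 to 3834 TPM in Control and 1784 to 3724 TPM in Chd4KO. The 15 acinar markers, genes of the digestive enzyme cells around islets, were each above 0 in some library and summed to 34722 TPM in Chd4KO replicate 2, to 8.76 to 1348 TPM in Control and to 2.53 to 180.1 TPM in the other 3 Chd4KO libraries. The 8 leukocyte markers summed to 32.2 to 59.0 TPM in Control and 56.7 to 105.1 TPM in Chd4KO. Fcer1g alone averaged 15.8 TPM in Control and 48.1 TPM in Chd4KO. Insulin transcripts made up 62.0% of TPM in Chd4KO replicate 4 and 32.4 to 47.0% in the other 7 libraries. Changes of named members that moved by over 1.5 times, or turned in sign, without Chd4KO replicate 4 are given with and without it.

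Chd4KO beta cells had no complex I gene that passed the test. Of the 53 members, 52 reached 1 TPM in at least 4 libraries and were tested with limma on log2(TPM + 1), on which scale the changes below are given as Chd4KO minus Control with a standard error. None had an adjusted p under 0.05, against 2.97% of the 15189 genes tested, and the lowest was 0.188, for the assembly factor Ndufaf7. At an unadjusted p under 0.05 there were 3 members, with mt-Nd3 and Ndufaf7 lower and Ndufa3 higher, against 16.2% of all genes. With voom on the recovered reads no member was called either, and 2 were under 0.05 before adjustment. Control and Chd4KO values were fully separate in 5 of the 52 tested members with Chd4KO lower, against 11.3% of all tested genes, and in 1 with Chd4KO higher, against 3.54%. For 49 of the 52 members the 95% interval of the change lay within 2-fold in either direction, as it did for 49.5% of all genes tested, with mt-Nd3, mt-Nd5 and Ndufs1 as the exceptions. Adding 1 to TPM shrinks the change of genes near 1 TPM, and mt-Nd4l, counted among the 49, had -0.59 in place of -0.14 with a pseudocount of 0.1.

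The classes lay apart in their medians, which describe these libraries and were not tested. The median change was -0.42 for the 7 mitochondrial genes, all of them negative, 0.03 for the 7 nuclear core genes, -0.004 for the 29 accessory genes and -0.23 for the 8 assembly factors. All genes tested had a median of -0.25, with 74.8% of them negative. The mitochondrial median lay 0.16 below it, the nuclear core and accessory medians 0.28 and 0.25 above it, and the assembly median 0.02 above it. The shift of all genes was -0.06 without Chd4KO replicate 4. Without that library the accessory median was -0.14, or 0.09 below all genes, and the assembly median -0.18, or 0.12 below. The nuclear core median was then 0.01, or 0.07 above all genes, while the mitochondrial median was -0.34. Relative to all genes, the mitochondrial median ran from -0.46 without Chd4KO replicates 2 and 4, a fit not planned in advance, to -0.04 without Chd4KO replicate 1. In bulk libraries, fewer cells of a type and less RNA per cell cannot be told apart.

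**Figure D1:**
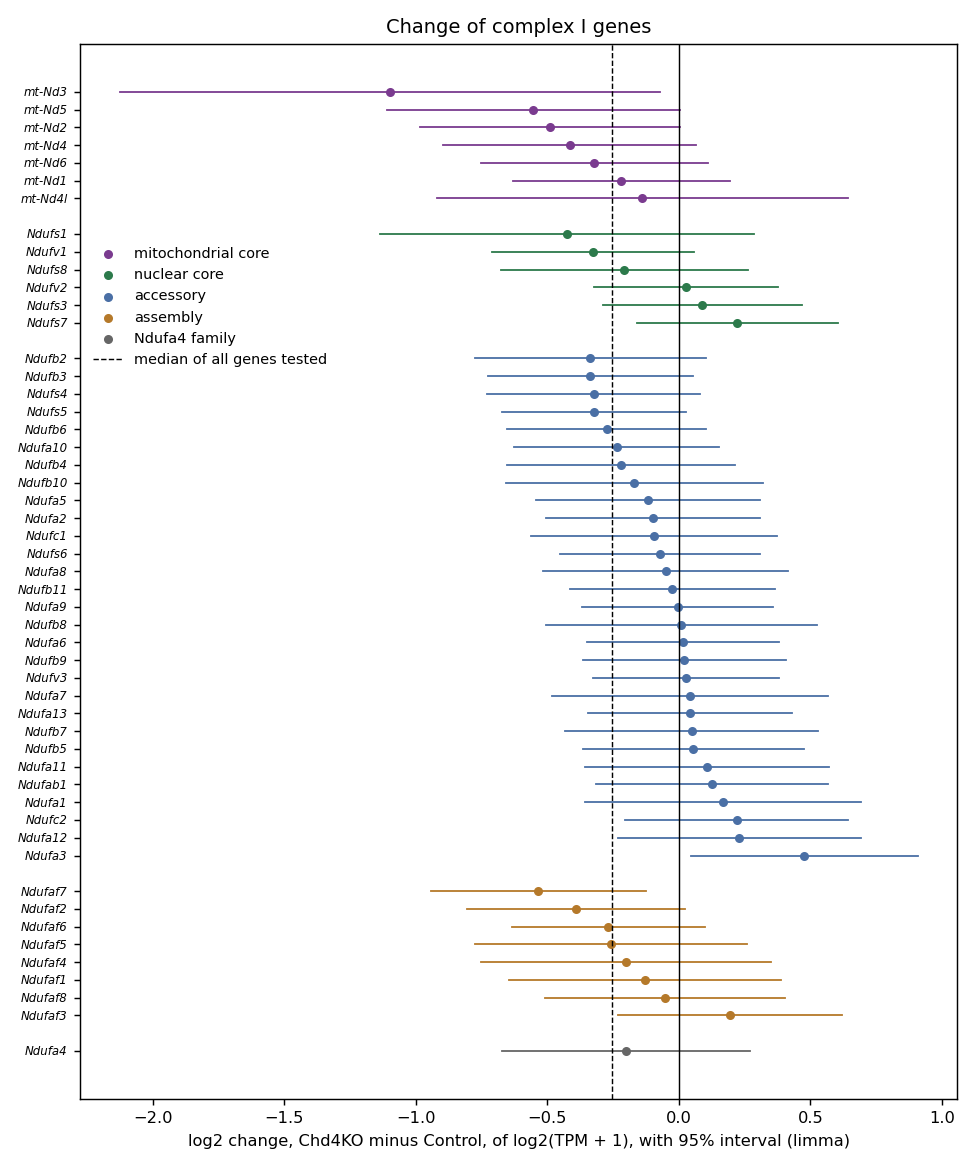
Log2 change (Chd4KO minus Control, on log2(TPM + 1)) of 51 complex I genes tested, grouped by class and ordered within it, where points are limma estimates and bars 95% intervals. The solid line marks no change and the dashed line the median of all genes tested at -0.25, and the 7 mitochondrial genes lie left of the solid line while the 29 accessory genes lie on both sides of it.

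Among the mitochondrial genes, mt-Nd1 (chrM:2751-3707), which lies where the arms meet and helps form the ubiquinone channel, had the highest level. It had 1375, 1443, 1176 and 1458 TPM in Control and 1136, 1453, 1114 and 1009 TPM in Chd4KO. Those ranges overlapped, and the change was -0.22 ± 0.18 (adjusted p = 0.540, 95% interval -0.63 to 0.19), which turned to 0.09 with median-of-ratios scaling. The antiporter-like pump subunit mt-Nd5 (chrM:11742-13565) had 781, 873, 628 and 844 TPM in Control and 593, 759.7, 454 and 381 TPM in Chd4KO. Chd4KO replicate 2 lay among the Control values and the other 3 below all of them, so that Chd4KO held 70.0% of the Control mean (change -0.55 ± 0.25, adjusted p = 0.312). The second pump subunit, mt-Nd4 (chrM:10167-11544), had 603, 545, 406 and 562 TPM in Control and 376, 519.8, 361 and 335 TPM in Chd4KO, a change of -0.42 ± 0.21 (adjusted p = 0.368). Again Chd4KO replicate 2 stood above the other 3, which lay below all Control values.

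The third pump subunit, mt-Nd2 (chrM:3914-4951), had 407, 405, 328 and 419.7 TPM in Control and 279, 392, 240.2 and 222 TPM in Chd4KO. The Chd4KO mean was 72.6% of Control (change -0.49 ± 0.22, adjusted p = 0.312), and only Chd4KO replicate 2 reached into the Control range. The hinge subunit mt-Nd6 (chrM:13552-14070), the single complex I gene on the light strand, had 549, 605, 472 and 596 TPM in Control and 423, 572, 398 and 398 TPM in Chd4KO (change -0.32 ± 0.19, adjusted p = 0.425). Libraries of this kind do not mark strand, so reads of mt-Nd6 and of the opposite strand there cannot be told apart. In these 5 abundant genes, which had between 1490 and 29507 recovered reads in each library, Chd4KO replicate 2 was the highest Chd4KO library throughout.

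The small hinge subunits mt-Nd3 and mt-Nd4l lie close together on the mitochondrial genome and had far lower TPM than the other 5. For mt-Nd3 (chrM:9459-9806) the levels were 20.3, 26.5, 21.8 and 37.3 TPM in Control and 16.3, 22.8, 11.1 and 3.88 TPM in Chd4KO, from 16 to 207 recovered reads. Its change of -1.10 ± 0.45 (adjusted p = 0.280, 95% interval -2.12 to -0.07) was the most negative of any member, and the groups overlapped. Without Chd4KO replicate 4, the library with 16 reads, it was -0.65. For mt-Nd4l (chrM:9877-10173) the levels were 0.475, 1.45, 0.574 and 1.90 TPM in Control and 0.929, 1.43, 1.40 and 0 TPM in Chd4KO, from at most 9 reads. No read was counted in Chd4KO replicate 4, where 3 reads would have given 0.853 TPM. From so few counted reads no difference was detectable (change -0.14 ± 0.35, adjusted p = 0.835, or 0.15 without Chd4KO replicate 4). The identical copy Gm10222 was listed higher than mt-Nd4l itself, at 14.4, 11.4, 6.09 and 9.80 TPM in Control and 5.16, 5.30, 3.30 and 5.74 TPM in Chd4KO. The copy Gm28438 of mt-Nd3 was listed at 4.50, 4.22, 4.45 and 6.17 TPM in Control and 1.60, 2.05, 0.803 and 0.489 TPM in Chd4KO. In both copies every Chd4KO value lay below every Control value, as held for 11.3% of all genes tested. The Chd4KO values of Gm28438 were low, at 2.05 TPM or less.

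**Figure D2:**
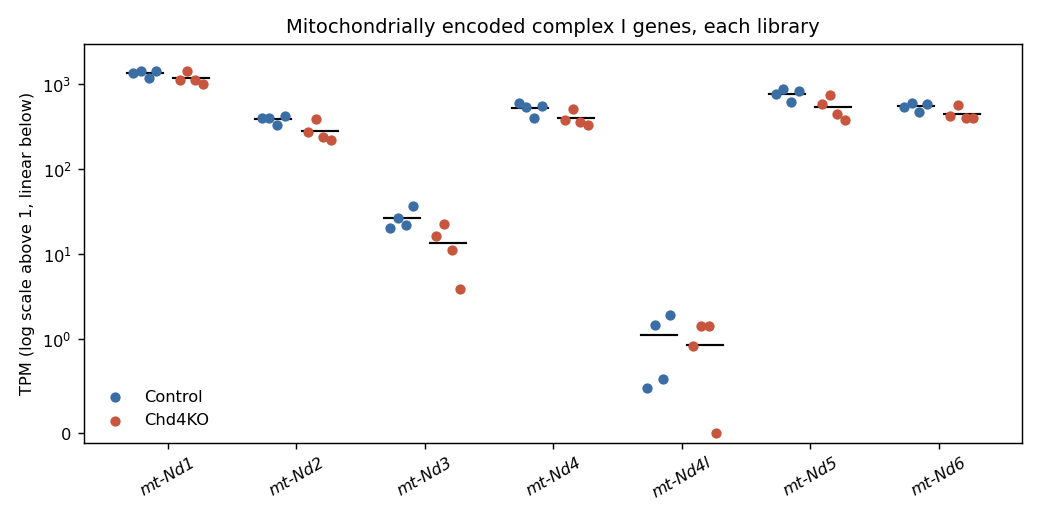
TPM of the 7 mitochondrially encoded complex I genes in each of the 4 Control (blue) and 4 Chd4KO (red) libraries, on an axis that is logarithmic above 1 and linear below, with horizontal lines at the group means. The groups overlap in all 7 genes, and mt-Nd3 and mt-Nd4l lie far below the other 5.

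Genes whose sequence is nearly all shared had low listed levels. Of the 13 protein genes of the mitochondrial genome, the 5 with nearly all of their words shared (mt-Nd3, mt-Nd4l, mt-Co2, mt-Co3 and mt-Atp6) had means between 1.02 and 43.3 TPM. The other 8 lay between 337 and 2201 TPM, apart from mt-Atp8 with 2.64 TPM and no shared word, whose exon overlaps that of mt-Atp6 over 21.1% of its length. Within these 8 the level did not follow the share, since mt-Co1 shared 51.1% of its words and had 1851 TPM, and mt-Nd4 stood above mt-Nd2. With 100-base words the shares were 97.6% for mt-Nd3, 98.5% for mt-Nd4l and 60.8% for mt-Nd4. By mean level the order was mt-Nd1, mt-Nd5, mt-Nd6, mt-Nd4, mt-Nd2, mt-Nd3 and mt-Nd4l. In Control, mt-Nd6 overlapped with mt-Nd4, and mt-Nd4 with mt-Nd2, while the other neighbours in that order did not overlap.

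**Figure D3:**
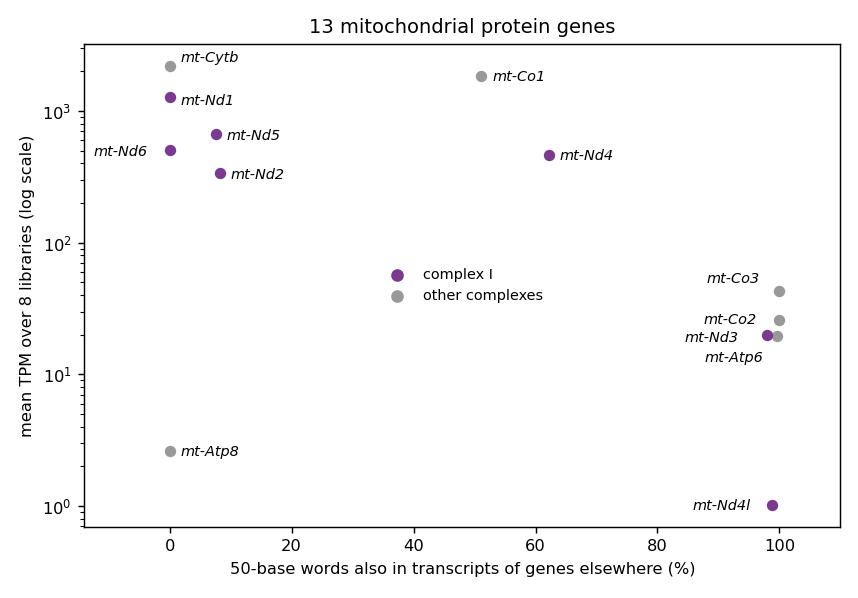
Mean TPM over the 8 libraries (log axis) of the 13 protein genes of the mitochondrial genome against the share of their 50-base words that also occur in transcripts of genes elsewhere, with complex I genes in purple and the others in grey. The 5 genes at the right edge, mt-Nd3 and mt-Nd4l among them, lie at or below 43.3 TPM, and mt-Atp8 at the left edge is low as well.

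The nuclear core subunits carry the redox centres, and none of the 7 passed the test. Ndufv1 (chr19:4007384-4012806), which binds NADH and the flavin, had 94.4, 74.9, 81.2 and 80.8 TPM in Control and 68.9, 68.9, 69.7 and 55.9 TPM in Chd4KO. All 4 Chd4KO values lay below all Control values, at 79.5% of the mean (change -0.33 ± 0.17, adjusted p = 0.373). Its partner in the NADH module, the iron-sulfur protein Ndufv2 (chr17:66078638-66101559), had 72.3, 74.8, 68.3 and 73.2 TPM in Control and 66.1, 77.5, 75.4 and 75.6 TPM in Chd4KO, a change of 0.03 ± 0.16 (adjusted p = 0.931, or 0.01 without Chd4KO replicate 4) with the groups overlapping. The largest iron-sulfur subunit, Ndufs1 (chr1:63143596-63176833), had 38.2, 31.8, 31.6 and 27.0 TPM in Control and 30.1, 29.1, 30.1 and 11.4 TPM in Chd4KO. The value of 11.4 TPM in Chd4KO replicate 4 stood below the other 7 libraries, and the change was -0.42 ± 0.32 (adjusted p = 0.499). Without that library it was -0.10.

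Ndufs7 (chr10:80249121-80256794), which holds the last iron-sulfur cluster before ubiquinone, had 98.6, 88.5, 89.4 and 97.3 TPM in Control and 92.1, 107, 113 and 127 TPM in Chd4KO (change 0.22 ± 0.17, adjusted p = 0.507). Its groups overlapped, and its highest value was that of Chd4KO replicate 4. Ndufs8 (chr19:3908863-3912774), which holds a pair of iron-sulfur clusters, had 89.1, 77.0, 78.9 and 84.3 TPM in Control and 59.7, 66.3, 63.0 and 102 TPM in Chd4KO. In 3 Chd4KO libraries it lay below all Control values and in replicate 4 above all of them (change -0.21 ± 0.21, adjusted p = 0.602). The change was -0.38 without replicate 4 and -0.13 without replicate 1. Ndufs3 (chr2:90894634-90904827), an early-assembled subunit of the matrix arm, had 60.4, 56.3, 57.7 and 64.6 TPM in Control and 58.1, 57.1, 66.1 and 74.3 TPM in Chd4KO (change 0.09 ± 0.17, adjusted p = 0.779, or 0.01 without Chd4KO replicate 4). Its sequence shares 16.1% of 50-base words with other genes, mainly a processed pseudogene listed at no more than 2.26 TPM.

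**Figure D4:**
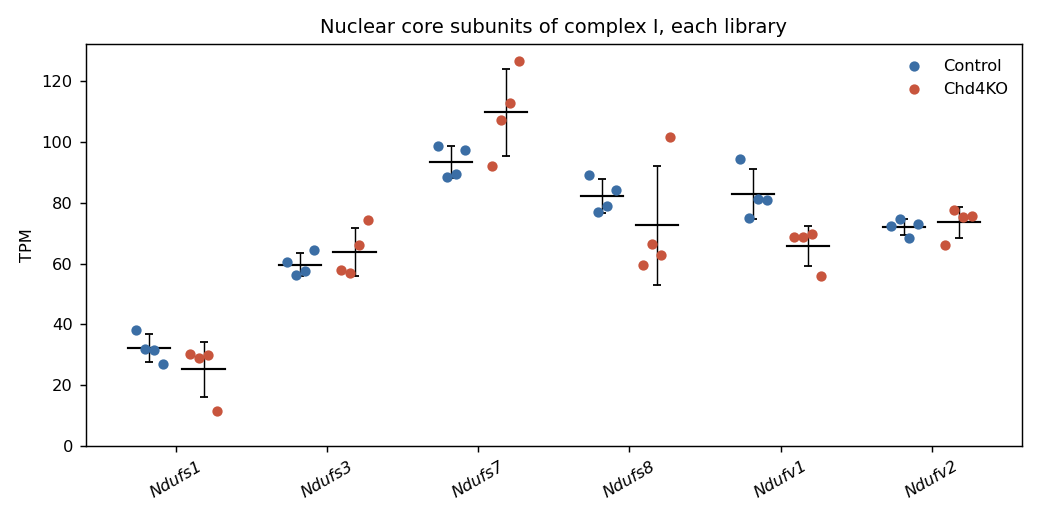
TPM (linear axis) of 6 nuclear core subunits in each of the 4 Control (blue) and 4 Chd4KO (red) libraries, with lines at the group mean and bars of 1 SD. Of these, only Ndufv1 has groups that do not overlap, and in Ndufs1 and Ndufs8 a single Chd4KO library, replicate 4, lies away from the other 3.

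Accessory subunits have no redox centre and are needed to build and hold the enzyme. Of the 29, none passed the test, 15 had a negative and 14 a positive estimate, and the estimates ran from -0.34 to 0.48. The highest level of any nuclear member was that of Ndufa1, a small X-linked membrane subunit, with 446, 398, 441 and 497 TPM in Control and 447, 365, 526 and 728 TPM in Chd4KO. Its groups overlapped, and Chd4KO replicate 4 lay above the rest (change 0.17 ± 0.23, adjusted p = 0.698). Without that library the change was -0.01. Ndufa2, a matrix-arm subunit with a thioredoxin fold, had 153, 156, 166 and 179.9 TPM in Control and 139, 134, 152 and 191 TPM in Chd4KO (change -0.10 ± 0.18, adjusted p = 0.771). Ndufb11, another X-linked membrane subunit, had 164, 125, 151 and 158 TPM in Control and 146, 129.9, 149 and 162 TPM in Chd4KO (change -0.02 ± 0.17, adjusted p = 0.944). For Ndufa2 and Ndufb11 the groups overlapped over most of their range, and the sign of the change turned under other scalings of TPM. Without Chd4KO replicate 4 the changes were -0.21 and -0.07.

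The most positive accessory estimate was that of Ndufa3 (chr7:3617373-3620327), a membrane-arm subunit. It had 50.004, 41.0, 44.8 and 46.6 TPM in Control and 63.6, 51.4, 61.7 and 81.8 TPM in Chd4KO. Every Chd4KO value lay above every Control value, the only member for which this held, at 142% of the Control mean (change 0.48 ± 0.19, adjusted p = 0.260, 95% interval 0.05 to 0.91). Ndufa12, which replaces the assembly factor Ndufaf2 late in assembly, had 44.4, 39.3, 43.8 and 46.2 TPM in Control and 41.8, 52.6, 43.8 and 70.4 TPM in Chd4KO (change 0.23 ± 0.20, adjusted p = 0.561). Its high values were in Chd4KO replicates 2 and 4, without which the change was -0.02 (0.08 without replicate 4 alone), and it shares 17.7% of its words with the pseudogene Gm15920. Ndufc2, a membrane-arm subunit, had 139.9, 112, 126 and 134 TPM in Control and 154, 187, 126 and 135 TPM in Chd4KO, with the highest value in replicate 2 (change 0.22 ± 0.19, adjusted p = 0.547, or 0.11 without that library).

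At the negative end stood Ndufb2, Ndufb3 and Ndufs4. Ndufb2, a membrane-arm subunit and the accessory gene with the lowest TPM, had 4.74, 4.35, 4.68 and 4.62 TPM in Control and 4.24, 3.85, 3.67 and 2.25 TPM in Chd4KO. The groups did not overlap, with 2.25 TPM in replicate 4 as the lowest value (change -0.34 ± 0.19, adjusted p = 0.412, or -0.19 without that library). Ndufb3, a membrane-arm subunit as well, had 96.95, 73.6, 91.3 and 96.3 TPM in Control and 70.2, 69.9, 78.3 and 63.5 TPM in Chd4KO (change -0.34 ± 0.17, adjusted p = 0.371). Ndufs4, a matrix-arm subunit whose loss causes Leigh syndrome in humans and a like disease in mice, had 30.4, 27.1, 25.8 and 30.5 TPM in Control and 22.7, 27.3, 22.1 and 18.5 TPM in Chd4KO (change -0.32 ± 0.18, adjusted p = 0.397). In Ndufb3 and Ndufs4, 3 of the 4 Chd4KO values lay below all Control values. The remaining accessory gene without overlap was Ndufs5, a subunit on the intermembrane face named here after its values were seen, with a mean of 95.9 ± 5.80 TPM in the Control and 76.6 ± 4.06 TPM in the Chd4KO libraries (SD, n = 4 each, change -0.32 ± 0.16, limma adjusted p = 0.345). It shares 21.7% of its words with the pseudogene BC002163.

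Split by position in the enzyme, the nuclear subunits had like medians. The 16 nuclear genes of the matrix arm, core and accessory, had a median change of 0.005, and the 19 of the membrane arm one of -0.02. The level ratio of nuclear core to accessory genes, from their summed TPM, averaged 0.294 ± 0.0138 over Control and 0.301 ± 0.0211 over Chd4KO libraries (SD, n = 4 each).

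Assembly factors act on the way to the finished enzyme and had lower levels than the subunits, with a median of 14.4 TPM over the 8 genes against 74.3 TPM for nuclear core and 57.1 TPM for accessory genes. None of the 8 passed the test. A negative estimate was found in 7 of the 8, against 74.8% of all genes tested, and 4 lay below the median of all genes. Ndufaf7 (chr17:78937136-78948052), a methyltransferase needed early in assembly, had 21.4, 17.2, 18.9 and 18.7 TPM in Control and 10.004, 13.7, 13.3 and 14.7 TPM in Chd4KO. Every Chd4KO value lay below every Control value, at 67.9% of the Control mean (change -0.53 ± 0.18, adjusted p = 0.188, 95% interval -0.94 to -0.12). It lay under the threshold in 1 of 19 other fits, the one with array weights (adjusted p = 0.0398), and its adjusted p reached 0.706 in the others. Ndufaf2, a chaperone related to Ndufa12, had 2.47, 2.86, 2.43 and 2.88 TPM in Control and 2.04, 2.38, 1.58 and 1.28 TPM in Chd4KO, again without overlap (change -0.39 ± 0.18, adjusted p = 0.333). Its value is uncertain, since 65.6% of its exon bases overlap another gene.

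Ndufaf3, which works with Ndufaf4 early in assembly, was the single assembly factor with a positive estimate. It had 27.5, 29.6, 26.4 and 30.9 TPM in Control and 27.8, 33.1, 29.2 and 42.8 TPM in Chd4KO (change 0.19 ± 0.19, adjusted p = 0.591), and its groups overlapped. Ndufaf8, the partner of the hydroxylase Ndufaf5, had 29.8, 27.7, 26.5 and 32.1 TPM in Control and 22.3, 25.5, 27.7 and 38.2 TPM in Chd4KO (change -0.05 ± 0.20, adjusted p = 0.898). Both had their highest value in Chd4KO replicate 4, without which the changes were 0.07 and -0.20. Ndufaf1, which binds Ecsit and Acad9 in the complex that builds the membrane arm, had 20.8, 12.0, 13.2 and 14.6 TPM in Control and 15.6, 15.1, 14.1 and 9.90 TPM in Chd4KO (change -0.13 ± 0.23, adjusted p = 0.766, or 0.01 without Chd4KO replicate 4). Ndufaf6, a factor needed for the quinone module, had 15.4, 17.9, 15.9 and 14.2 TPM in Control and 12.0, 12.7, 14.2 and 12.9 TPM in Chd4KO (change -0.27 ± 0.16, adjusted p = 0.429). Ndufaf1 and Ndufaf8 had signs that turned in several alternative fits, and in Ndufaf6 3 of 4 Chd4KO values lay below all Control values. Of 12 other assembly factors of complex I, none passed with limma or voom, and 0 had an unadjusted limma p under 0.05. Their median change was -0.19, or 0.06 above that of all genes. The 1 among them without overlap, Acad9, named here after its values were seen, had 7.86, 7.38, 7.33 and 7.41 TPM in Control and 6.501, 5.996, 5.38 and 2.07 TPM in Chd4KO (change -0.58 ± 0.28, adjusted p = 0.348, or -0.29 without Chd4KO replicate 4).

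Ndufa4 had 145, 90.2, 108 and 113 TPM in Control and 80.8, 91.8, 103 and 118 TPM in Chd4KO, with overlapping groups (change -0.20 ± 0.21, adjusted p = 0.613). Its relative Ndufa4l2, known from cells under low oxygen, had at most 0.572 TPM in a library and was not tested.

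The balance between the genomes was read from the ratio of summed TPM within each library, which does not depend on the total to which TPM is scaled. The 7 mt-Nd genes summed to 3736, 3899, 3033 and 3919 TPM in Control and to 2824, 3721, 2578 and 2349 TPM in Chd4KO. The 36 nuclear core and accessory genes summed to 3081, 2706, 3004 and 3125 TPM in Control and to 2782, 2774, 2977 and 3651 TPM in Chd4KO. The ratio of mitochondrial to nuclear sums was therefore 1.21, 1.44, 1.01 and 1.25 in Control and 1.02, 1.34, 0.866 and 0.643 in Chd4KO. Chd4KO replicates 3 and 4 lay below all Control libraries, and replicates 1 and 2 lay within the Control range. The means were 1.23 ± 0.177 and 0.966 ± 0.293 (SD, n = 4 each), a difference of -0.39 on the log2 scale with an SD within groups of 0.35. Without Chd4KO replicate 4 the difference was -0.21, without replicate 2 it was -0.56, and without both it was -0.38.

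**Figure D5:**
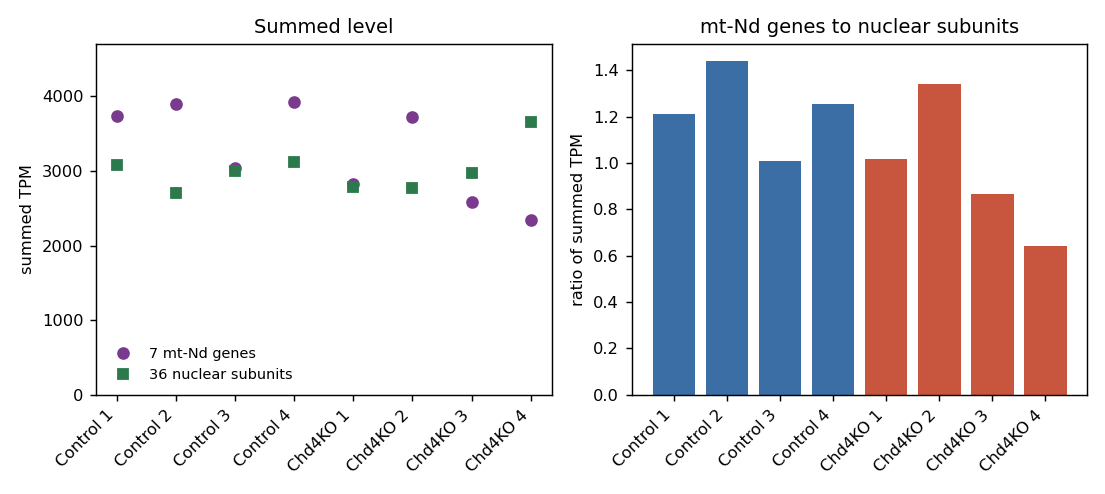
Left, summed TPM of the 7 mt-Nd genes (circles) and of the 36 nuclear core and accessory genes (squares) in each library; right, the ratio of these sums per library, with Control in blue and Chd4KO in red. The ratio runs from 1.01 to 1.44 in Control and from 0.643 to 1.34 in Chd4KO, and the lowest value is that of Chd4KO replicate 4.

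In Chd4KO replicate 4 the classes parted most. There 22 of the 36 nuclear subunit genes had their highest and 6 their lowest value of all libraries, while 6 of the 7 mt-Nd genes had their lowest. Insulin took 62.0% of TPM in that library, and Spearman's rho between exon length and the log2 deviation of a gene from its Control mean was -0.33 across 15172 genes and -0.22 across 45 nuclear complex I genes, given as a description. In the other 7 libraries rho ran from -0.14 to 0.12 across all these genes. Across the 45 it ran from -0.41 in Control replicate 4 to 0.29 in Control replicate 2, a range that holds the value of Chd4KO replicate 4. For each Control library the Control mean was taken over the remaining Control libraries. In Chd4KO replicate 2, with the high acinar sum, the mt-Nd sum of 3721 TPM lay inside the Control range. The part of insulin share, length and acinar RNA in these values was not tested.

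The other protein genes of the mitochondrial genome showed a like balance. These 6 genes are mt-Cytb of complex III, mt-Co1 to mt-Co3 of complex IV, and mt-Atp6 and mt-Atp8 of ATP synthase. All had a negative estimate, against 74.8% of all genes tested, and their median was -0.60. None was called by limma or by voom on recovered reads, and 3 had an unadjusted limma p under 0.05, against 16.2% of all genes. Those 3 were mt-Co2 (-0.86), mt-Atp6 (-0.75) and mt-Co3, each with at least 99.5% of its words shared. The change of mt-Co1 was -0.49. The sum of the 6 genes over that of the nuclear complex I subunits averaged 1.60 ± 0.302 over Control and 1.19 ± 0.425 over Chd4KO libraries. The ratio of mt-Nd genes to the 6 was 0.777 ± 0.0774 and 0.820 ± 0.0705 (SD, n = 4 each). Among the 6, mt-Cytb had 3122, 2576, 1937 and 2394 TPM in Control and 1668, 2432, 1623 and 1859 TPM in Chd4KO (change -0.40 ± 0.22, adjusted p = 0.390). The groups overlapped there. They did not for mt-Co3, the single one of the 6 without overlap, with 51.3, 57.7, 46.4 and 57.6 TPM in Control and 29.9, 44.2, 28.3 and 30.6 TPM in Chd4KO (change -0.68 ± 0.20, adjusted p = 0.124). Its adjusted p was under 0.05 in 2 of 19 alternatives, 0.0291 with array weights and 0.0341 in the unplanned fit without Chd4KO replicates 2 and 4. Of the words of mt-Co3, 99.9% are shared. The ribosomal RNAs had overlapping groups and estimates of opposite sign, -0.39 ± 0.23 for mt-Rnr2 with means of 831 ± 135 and 641 ± 156 TPM, and 0.14 ± 0.34 for mt-Rnr1 with 157 ± 58.0 and 175 ± 68.2 TPM (SD, n = 4 each), the latter turning to -0.09 without Chd4KO replicate 4. The share of TPM from all mitochondrially encoded genes averaged 1.08% ± 0.164 over Control and 0.840% ± 0.211 over Chd4KO libraries (SD, n = 4 each).

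The other respiratory complexes and the factors that express mitochondrial DNA were read from the same fit. None of 8 genes of complex II, 10 of complex III and 19 of ATP synthase passed the test, and 1 of 14 of complex IV did, where Cox6a2, the muscle and heart form of a small subunit, fell by 2.81 ± 0.40 (adjusted p = 0.00676). At an unadjusted p under 0.05 the counts were 0, 1, 3 and 3 in complexes II, III, IV and ATP synthase, against 16.2% of all genes tested. These lists include the mitochondrial genes of each complex, so mt-Co2, mt-Co3 and mt-Atp6 are counted here again. Voom called the same numbers as limma. The 45 nuclear genes of complexes II to V tested had a median change of -0.19. Of 26 genes that copy, transcribe or process mitochondrial DNA, none passed with limma or voom, and 2 had an unadjusted limma p under 0.05. A negative estimate was found in 24 of them, against 74.8% of all genes tested. Their median of -0.20 lay 0.06 above that of all genes, and 11 of the 26 changes lay below the latter. Lrpprc, which stabilises mitochondrial messenger RNA, had 28.3, 24.7, 25.4 and 21.7 TPM in Control and 21.9, 22.7, 14.99 and 5.80 TPM in Chd4KO (change -0.74 ± 0.38, adjusted p = 0.368). The mitochondrial RNA-binding protein Grsf1 had 96.6, 90.0, 86.1 and 81.1 TPM in Control and 121, 106, 97.2 and 28.7 TPM in Chd4KO (change -0.18 ± 0.41, adjusted p = 0.815), and in both genes replicate 4 was the lowest of all libraries. The other 3 Chd4KO values of Grsf1 lay above all Control values, and without replicate 4 the changes were 0.28 for Grsf1 and -0.34 for Lrpprc. Of 8 nuclear regulators of respiratory genes, among them Nrf1, Gabpa, Yy1 and Esrra, none passed with either tool or had an unadjusted p under 0.05, and their median was -0.10.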

How the data were processed

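RNA-seq was done on 4 Control and 4 Chd4KO libraries of sorted beta cells, made per the labels' protocols with a SMART-Seq low-input kit and a Nextera XT kit. The authors deposited 1 table of TPM per library, each summing to 1000000 over 55487 genes. The submitters' processing notes name build mm10 and the tools HISAT2, HTSeq, Trimmomatic, FastQC and DESeq2. The annotation release and the counting mode are not given in the sources used here. GENCODE M21, of the same build, held 99.53% of the identifiers and gave symbols, positions and exon lengths.

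TPM times merged exon length gave whole reads for 98.5 to 98.7% of values (tolerance 0.05), used for depth and for voom, which called 588 genes. Genotype was the single term of the main test, run with limma 3.58.1 (R 4.3.3) on values of log2(TPM + 1), for the 15189 genes with at least 1 TPM in at least 4 libraries. P-values were two-sided and adjusted by the Benjamini-Hochberg method over all of these genes, and called under 0.05. The fit was tested on simulated data. A larger share of TPM in insulin lowers the value of all other genes. Shared sequence was counted as 50-base words of a gene's transcripts found in transcripts of genes elsewhere. Sequences are from the GRCm38 reference.

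Named with values in each library were the 7 mt-Nd genes, 6 of the 7 nuclear core genes (the other is not reported here) and, among accessory and assembly genes, the 3 highest in TPM and the 3 at each end of the order of changes, which for the assembly factors takes in negative values at the upper end. From the other respiratory chain genes and the mitochondrial DNA expression factors came called genes and some of the highest in TPM. From the cell type markers came the called genes and, after values were seen, the other tested leukocyte and ductal markers. The genes mt-Co2, mt-Co3 and mt-Atp6, the ribosomal RNAs, Ndufs5 and Acad9 were also named after their values were seen. The members and gene lists were chosen with earlier results of these data known. The 19 alternatives covered the pseudocount, filters, scalings, variance models, sample weights, a replicate block and libraries left out. Leaving out Chd4KO replicates 2 and 4 together was not planned in advance. Summaries and plots used scipy 1.17.1, pandas 2.3.3, matplotlib 3.10.9 and numpy 2.4.6 under Python 3.11.15.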

Additional observations from a re-analysis of the deposited data

Results flagged for a closer look

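In 5 of the 70 groups of 4 libraries examined, 1 library stood apart from the other 3 by Dixon's criterion, which chance gives in about 5% of groups. In Control, replicate 3 had 328 TPM of mt-Nd2 against 405 to 420 TPM. In Chd4KO, replicate 2 had 572 TPM of mt-Nd6 against 398 to 423 TPM. The other 3 concern nuclear core subunits in Chd4KO replicate 4, with 11.4 TPM of Ndufs1 against 29.1 to 30.1 TPM, 102 TPM of Ndufs8 against 59.7 to 66.3 TPM and 55.9 TPM of Ndufv1 against 68.9 to 69.7 TPM.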

How the results depend on the processing

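No complex I gene was called with limma or in 18 of the 19 alternatives, and 1 was with array weights (Ndufaf7). Of 543 values of the 29 named members under the alternatives, 511 kept their direction and side of the threshold, 31 changed sign and 1 passed it. The count of all genes called was 451, and 220 with a minimum of 5 TPM, 700 with median-of-ratios scaling (445 higher, 255 lower), 755 with quantile normalisation (466 higher, 289 lower), 1364 with array weights, and 135 to 630 with 1 library left out. Replicate numbers are not stated to pair the libraries. Correlations of same-numbered deviations were -0.02, 0.43, 0.08 and 0.04, which cannot show whether litter or date was shared. A replicate block gave 274 genes and no complex I gene.

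Other scalings moved the median of all genes from -0.25 to -0.01 (median of ratios), -0.03 (quantile), -0.15 (without hormones and mitochondrial genes) and -0.21 (voom), and the class medians with it. In that order of settings the nuclear core median was 0.33, 0.19, 0.18 and 0.14, and the accessory median 0.30, 0.14, 0.15 and 0.11. The assembly median was 0.043 and 0.061 under the first pair, and the mitochondrial median -0.11 under the first. Relative to all genes the mitochondrial median stayed between -0.28 and -0.10 under the 5 scalings, and the nuclear core median between 0.22 and 0.35. Over all 20 settings these ranges were -0.46 to -0.04 and 0.05 to 0.44. With 1 library left out, the accessory median ran from -0.14 to 0.022.

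The sign of single genes turned as follows. With median-of-ratios scaling the change was 0.089 for mt-Nd1, 0.10 for Ndufs8, 0.21 for Ndufa2, 0.28 for Ndufb11, 0.25 for Ndufaf8, 0.16 for Ndufaf1, 0.023 for Ndufaf6, 0.10 for Ndufa4 and 0.12 for Grsf1. Without hormones and mitochondrial genes it was 0.057 for Ndufa2, 0.13 for Ndufb11, 0.10 for Ndufaf8 and 0.018 for Ndufaf1. With quantile normalisation it was 0.011 for Ndufa2, 0.10 for Ndufb11, 0.13 for Ndufaf8, 0.12 for Ndufaf1 and 0.00061 for Grsf1, and with voom 0.017 for Ndufa2, 0.093 for Ndufb11 and 0.071 for Ndufaf8. With array weights it was 0.046 for Ndufaf1, 0.043 for mt-Nd4l, 0.21 for Grsf1 and -0.036 for mt-Rnr1. Without Chd4KO replicates 2 and 4 together it was -0.019 for Ndufa12, 0.0015 for Ndufaf1, -0.030 for Ndufv2, 0.30 for Grsf1 and -0.21 for mt-Rnr1. With 1 library left out, the range was -0.29 to 0.15 for mt-Nd4l, -0.011 to 0.32 for Ndufa1, -0.11 to 0.033 for Ndufb11, -0.20 to 0.050 for Ndufaf8, -0.22 to 0.025 for Ndufaf1, -0.40 to 0.28 for Grsf1 and -0.086 to 0.38 for mt-Rnr1. The cause of these turns was not tested. The few reads counted for mt-Nd4l, at most 9 in a library, limit its estimate.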

Other observations

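The level order of the 36 nuclear core and accessory genes went with their annotated exon length, with a Spearman rho of -0.74 between mean TPM and the merged length of all exons, given as a description. TPM divides by that merged length, which for some genes is several times that of the principal transcript. Ndufb7 had 14.6 TPM, which corresponds to 106 on the scale of its principal transcript, 7.26 times shorter. Ndufb2 remained the lowest of the 36 on that scale at 5.21, and Ndufa1 the highest at 481.

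Promoters of 40 of the 46 nuclear members were found in the RefSeq table for GRCm38 (300 bases around the start, both strands). The NRF1 word GCATGCGC was in 5 of the 40 (12.5%) and in 3.05% of 27025 genes. The YY1 word AAGATGGC was in 8 (20%) and in 3.19% of all genes, Ndufa3, Ndufs4 and Ndufs7 among them. The ETS word CCGGAAG was in 6 (15%) and in 9.93% of all genes. A match is a description of the letters in this window only.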
